A study of Mus musculus with 38 samples.

Results

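Primary tumours of 4T1 cells, a mouse mammary adenocarcinoma line that models triple-negative breast cancer, were compared between 5 libraries of an insulin resistance (IR) group and 4 control libraries. These 9 libraries, chosen by their table and group label, are part of a series of 38, in which cultured 4T1 cells were given exosomes, the small vesicles that cells release, from insulin sensitive or insulin resistant adipocytes. The tumours of the first group carry only the name IR group as their treatment, and those of the second are labelled as not treated. What the IR tumours or their hosts were given, the host strain, its age and the site of injection are not named for these samples, and no label says whether a library is 1 animal. The p-values therefore measure the spread between samples. Libraries carry the replicate number of their titles, and the library called control 4 has the number 5 in its column name.

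A tumour grown from injected cells is a mixture. The carcinoma cells lie in a stroma of fibroblasts, which lay down collagen, and of vessels and immune cells supplied by the host, and a dissected piece can also take in the tissue around it. In the mammary fat pad that tissue includes fat, milk-producing epithelium, a lymph node, skin and the muscle of the body wall. In bulk RNA, fewer cells of a type and less RNA per cell cannot be told apart.

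The tumours held the transcripts of all these sources. Levels are given in CPM, counts scaled to one common library size, and are not corrected for gene length. Of 24 markers of tumour epithelium, all were detected at 1 CPM or more in each of 3 libraries of untreated 4T1 cells in culture, which come from a separate table and are set beside the tumours without a test. Their summed level was 4647 to 8314 CPM in IR tumours, 4104 to 6324 CPM in control tumours and 5015 to 5044 CPM in culture. Xist, which silences 1 X chromosome in female cells and was near 0 in the culture libraries, was at 107, 165, 137, 96.5 and 66.6 CPM in IR 1 to IR 5 and at 81.2, 165, 103 and 87.3 CPM in control 1 to 4 (culture at most 0.0877 CPM). The Xist ranges overlapped (log2 fold change 0.07 ± 0.28, SE, adjusted p = 0.998 by edgeR's quasi-likelihood test). Total counts were 17392887 to 21909370 per library.

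Muscle separated 2 libraries from the rest. The transcripts of 59 skeletal muscle genes made up 2.24% of the counts in IR 4 and 0.372% in IR 5, and 0.0148% to 0.0808% in the other 7 libraries. Acta1, the actin of skeletal muscle fibres, was at 0, 0.54, 1.06, 4458 and 794 CPM in IR 1 to IR 5 and at 42.6, 0, 66.4 and 0.35 CPM in control 1 to 4. Acta1 was thus high in IR 4 and IR 5, lower in control 1 and control 3, and close to 0 in the other 5 libraries. Myh4, a myosin heavy chain of fast fibres, was at 2614 CPM in IR 4 and 205 CPM in IR 5, at 19.8 CPM in control 1 and 61.0 CPM in control 3, and at 0 elsewhere. Ckm, the creatine kinase of muscle, had 1904 and 311 CPM in IR 4 and IR 5, against at most 33.3 CPM in any control.

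The sequences upstream of Acta1 and Myh4 are shown because these genes define the muscle-rich libraries, and that of Csn2, the milk protein beta-casein, because casein transcripts separate other libraries below. They are the 250 bases before the annotated start in RefSeq on build GRCm38.p6, 5′ to 3′ on the strand of the gene. Capitals mark the TATAAA box and the CArG box, bound by serum response factor, in the muscle genes, and the letters TTCNNNGAA, the core that STAT factors bind, in Csn2. All motifs were searched on both strands and none overlapped another.
Acta1, chr8:123894776-123895025, minus strand: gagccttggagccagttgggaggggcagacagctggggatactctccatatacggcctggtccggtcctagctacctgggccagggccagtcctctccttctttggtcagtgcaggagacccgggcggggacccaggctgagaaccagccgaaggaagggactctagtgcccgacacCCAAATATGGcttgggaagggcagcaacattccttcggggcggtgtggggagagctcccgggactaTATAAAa
Myh4, chr11:67237562-67237811, plus strand: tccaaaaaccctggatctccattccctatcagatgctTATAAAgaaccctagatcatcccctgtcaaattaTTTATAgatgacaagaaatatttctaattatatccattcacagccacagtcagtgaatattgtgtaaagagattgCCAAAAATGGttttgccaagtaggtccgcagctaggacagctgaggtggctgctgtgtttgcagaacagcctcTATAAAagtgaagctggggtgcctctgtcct
Csn2, chr5:87699426-87699675, minus strand: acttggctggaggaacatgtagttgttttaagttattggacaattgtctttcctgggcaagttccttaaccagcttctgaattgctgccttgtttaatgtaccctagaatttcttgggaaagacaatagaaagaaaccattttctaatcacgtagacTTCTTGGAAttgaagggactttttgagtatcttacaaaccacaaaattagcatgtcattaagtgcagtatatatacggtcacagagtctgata
Over 32851 promoters of the same length, TATAAA was found in 12.4%, the CArG box in 1.47% and TTCNNNGAA in 7.02%. Acta1 held 1 CArG box and Myh4 held 1, and a match is a description of letters only.

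Regenerating and cardiac muscle genes were read beside the fibre genes. Myog, a transcription factor of newly forming muscle, was at 18.0 CPM in IR 4 and 7.97 CPM in IR 5 and at 0 in the other 7 libraries. Of 8 cardiac muscle genes, Nppa, the atrial peptide, was at 0 in the IR libraries and at most 0.1 CPM in controls. Myl4, a light chain of atrial and embryonic muscle, was at 35.1 CPM in IR 4 and 30.7 CPM in IR 5. It was at most 4.22 CPM in the other IR libraries and at most 3.12 CPM in controls. Myh6, the alpha myosin of heart, was at 8.76 CPM in IR 4, 1.09 CPM in IR 5, at most 0.108 CPM in the other IR libraries and at most 0.328 CPM in controls. Tnni3 and Nppb, of the same list, were instead highest in control 4, with 37 and 47 counts, against at most 24 and 39 in any IR library. Myl7 and Ryr2 had at most 2 and 3 counts in any library. The cardiac sum was 348 CPM in IR 4, 347 CPM in IR 5, 155 to 206 CPM in the other IR libraries and 114 to 253 CPM in controls. Most of it in every library was Tnnt2, a troponin T of heart, with 2201 to 6058 counts. Cultured 4T1 cells had a cardiac sum of 95.1 to 100 CPM, so the sum is not a measure of muscle alone. Erythroid genes were also highest in these libraries, with a sum over 8 genes of 592 CPM in IR 4 and 729 CPM in IR 5, 75.7 to 279 CPM in the other IR libraries and 70.2 to 198 CPM in controls. Of the 59 muscle genes, 28 passed the low-count filter, and 7 of the 59 passed it without IR 4 and IR 5, so no group difference is drawn from those that passed. Acta1 itself passed the filter and was not called, with a log2 fold change of 5.27 ± 2.85 (edgeR adjusted p = 0.745).

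Lymphoid transcripts separated another pair, 1 library from each group. Immunoglobulin genes made up 0.487% of the counts in IR 2 and 0.366% in control 2, 0.0311% in IR 5 and at most 0.00395% in the other 6 libraries. Igkc, the kappa light chain constant region, was at 0.513, 1446, 0.424, 1.43 and 110 CPM in IR 1 to IR 5 and at 1.47, 1105, 3.41 and 11.3 CPM in control 1 to 4. The high libraries were IR 2 and control 2, and the ranges of the groups overlapped (log2 0.15 ± 2.27, edgeR adjusted p = 0.998). Variable gene segments with 10 counts or more numbered 111 in IR 2, 105 in control 2, 18 in IR 5 and 0 to 2 in the others. The most abundant segment took 9.67% of the variable-gene counts in IR 2 and 17.05% in control 2. Reads of closely similar segments may be shared between them. Igha, the constant region of immunoglobulin A, was at 60.3 CPM in IR 2 and at most 1.48 CPM in any other library.

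The same libraries were high for other genes of lymphoid tissue. Cd79a, part of the B cell receptor, was at 145 CPM in IR 2, 31.7 CPM in IR 5 and 112 CPM in control 2, and at most 1.25 CPM elsewhere. Cd3e, part of the T cell receptor complex, was at 37.5, 11.4 and 39.5 CPM in these 3 libraries and at most 3.09 CPM elsewhere. Ccl21a, a chemokine of lymph node stroma that draws T cells and dendritic cells, was at 295 CPM in IR 2, 73.3 CPM in IR 5 and 189 CPM in control 2, and at most 2.01 CPM in the other 6. Cr2, a complement receptor of B cells and follicular dendritic cells, was at 38.8 CPM in IR 2, 6.88 CPM in IR 5 and 32.3 CPM in control 2. The 11 genes of class II antigen presentation, carried by B cells, dendritic cells and macrophages, summed to 2463, 5292, 2457, 2302 and 3645 CPM in IR tumours and to 1717, 4521, 2166 and 2338 CPM in controls, highest in the same libraries.

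Other tissues stood out in single libraries. In control 1, keratins of the outer skin layers were present, with Krt1 at 131 CPM, Krt10 at 187 CPM and Lor, the loricrin of cornified cells, at 97.7 CPM. In all IR libraries Krt1 was at 0, Krt10 was at most 4.66 CPM and Lor was at most 0.417 CPM. Control 2 was highest for Mpo, the myeloperoxidase of immature neutrophils, at 23.9 CPM, against at most 2.92 CPM in any IR library and at most 0.25 CPM in the other controls. Adipoq, the fat cell hormone adiponectin, was lowest in IR 1 at 3.36 CPM and IR 4 at 6.97 CPM, ran from 35.2 to 69.9 CPM in the other IR libraries and from 19.6 to 51.0 CPM in controls.

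**Figure D1:**
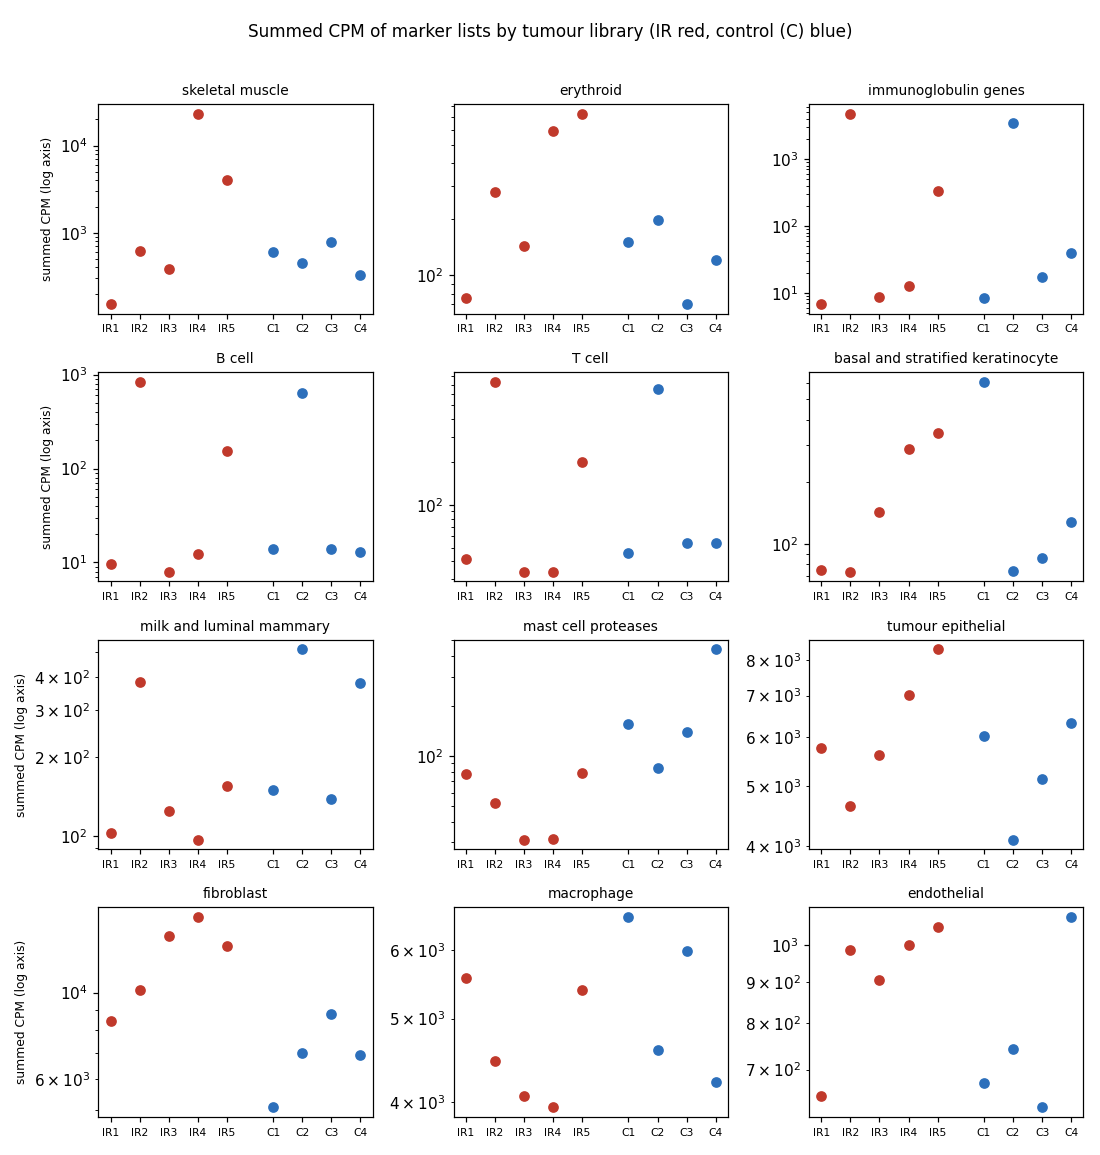
Summed CPM (log axis) of 12 marker lists in each tumour library, IR in red at the left and control (C) in blue at the right, 1 point per library. Muscle stands apart in IR 4 (23180 CPM) and IR 5 (4028 CPM), immunoglobulin genes in IR 2 (4741 CPM) and control 2 (3497 CPM), and keratinocyte genes in control 1 (610 CPM).

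Across all genes, no gene passed at an adjusted p of 0.05 by edgeR's quasi-likelihood test over 12962 genes, the smallest adjusted p being 0.354. At an unadjusted p under 0.05 there were 991 genes (7.65% of those tested), 630 of them higher in IR (4.86%) and 361 lower (2.79%). The authors' tool, DESeq2, called 124 genes at an adjusted p of 0.05 (0.957%), with 96 higher in IR tumours (0.741%) and 28 lower (0.216%). The IR and control libraries did not overlap for 312 genes (2.41%), 149 higher (1.15%) and 163 lower (1.26%). Of the 124 genes DESeq2 called, 90 were among these, 0 were muscle genes, 0 were immunoglobulin genes and 11 were collagen or laminin chains. What follows gives levels and both tests, and no gene is said to pass on DESeq2 alone without its edgeR value.

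Laminins are the trimeric proteins of the basement membrane on which epithelia rest, built of alpha, beta and gamma chains. Lamb3, the beta 3 chain, had the smallest p of all genes at 10 CPM or more. It was at 59.1, 74.8, 82.4, 112 and 87.2 CPM in IR 1 to IR 5 and at 23.5, 32.7, 34.0 and 37.2 CPM in control 1 to 4, so every IR library lay above every control. The log2 fold change was 1.38 ± 0.20 (edgeR adjusted p = 0.354, DESeq2 adjusted p = 2.73e-07). With replicate numbers as a block, which leaves out IR 5, Lamb3 was the 1 gene edgeR called (log2 1.35 ± 0.11, adjusted p = 0.0329). The labels do not say that libraries of equal number are pairs.

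Lama3, the alpha 3 chain, was at 18.5, 20.8, 38.5, 29.1 and 19.7 CPM in IR tumours and at 6.55, 8.21, 9.10 and 9.95 CPM in controls (log2 1.58 ± 0.25, edgeR adjusted p = 0.354, DESeq2 adjusted p = 6.29e-06). Every IR library again lay above every control, with IR 3 and IR 4 the highest. Untreated 4T1 cells in culture had 154 to 162 CPM of Lamb3 and 35.7 to 39.2 CPM of Lama3. Of 10 laminin chains tested, 10 had a log2 fold change above 0. At an unadjusted edgeR p under 0.05, 5 were higher, beside 4.86% of all genes. Lama4, the alpha 4 chain, had log2 fold changes of 0.56 to 0.83 under the settings run. Lama5, Lamb1 and Lamc1, chains that are widespread in basement membranes, had smaller ones. Lama5 had a log2 fold change of 0.15 ± 0.26, Lamb1 of 0.15 ± 0.19 and Lamc1 of 0.23 ± 0.20, with edgeR adjusted p of 0.970, 0.950 and 0.907.

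Matrix and fibroblast transcripts were mostly higher in IR tumours. Of 27 collagen chains tested, 13 were higher at an unadjusted edgeR p under 0.05 and 1 lower, beside 4.86% and 2.79% of all genes. DESeq2 called 8 higher and 0 lower, beside 0.741% and 0.216% of all genes. Col1a1, a chain of type I collagen, was at 2617, 3069, 4318, 5353 and 4165 CPM in IR tumours and at 1180, 1935, 2547 and 2037 CPM in controls (log2 1.02 ± 0.26, edgeR adjusted p = 0.452, DESeq2 adjusted p = 0.0104). The lowest IR library, IR 1, was just above the highest control, control 3. Col8a1, a short-chain collagen, was at 150, 98.3, 251, 313 and 194 CPM against 69.3, 67.2, 83.1 and 48.2 CPM in controls (log2 1.59 ± 0.31, edgeR adjusted p = 0.369, DESeq2 adjusted p = 0.000119). Cultured 4T1 cells had at most 0.648 CPM of Col1a1, and 210 to 231 CPM of Col8a1.

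Of 20 fibroblast markers, all tested, 13 were higher and 0 lower at an unadjusted edgeR p under 0.05, beside 4.86% and 2.79% of all genes. DESeq2 called 8 higher, beside 0.741% of all genes. The markers had a median log2 fold change of 0.66, beside 0.0065 over all genes. The median was 0.42 without IR 4 and IR 5, 0.69 without IR 2 and control 2, 0.42 without all 4, and 0.49 with the summed muscle level as a covariate. Their summed level was 8459, 10133, 13989, 15632 and 13129 CPM in IR tumours and 5076, 7007, 8789 and 6907 CPM in controls, so IR 1 lay within the range of the controls. Pdgfrb, the receptor by which fibroblasts and pericytes answer platelet-derived growth factor, was at 71.7, 75.3, 104, 92.4 and 84.6 CPM in IR tumours and at 33.7, 59.2, 56.7 and 61.5 CPM in controls (log2 0.70 ± 0.19, edgeR adjusted p = 0.466). Cdh11, a cadherin of mesenchymal cells, was at 21.97 to 79.4 CPM in IR tumours and at 12.3 to 19.7 CPM in controls (log2 1.47 ± 0.33, edgeR adjusted p = 0.369).

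Of 24 matrix remodelling genes tested, 10 were higher and 0 lower at an unadjusted edgeR p under 0.05, beside 4.86% and 2.79% of all genes. DESeq2 called 4 higher, beside 0.741% of all genes. Abundant matrix proteins overlapped between the groups. Fn1, fibronectin, was at 2982 to 9899 CPM in IR tumours and at 3355 to 5140 CPM in controls, and Spp1, osteopontin, at 2861 to 6129 CPM in IR tumours and at 2856 to 5564 CPM in controls. The groups did not overlap for Tnc, Thbs2, Spon1, Postn and Actg2, which were picked out from all genes. Tnc, tenascin C, a matrix protein of wounds and tumour stroma, was at 448, 455, 1129, 1131 and 806 CPM in IR tumours and at 197, 293, 284 and 295 CPM in controls (log2 1.57 ± 0.32, edgeR adjusted p = 0.369). IR 3 and IR 4 were the highest and the groups did not overlap. Thbs2, thrombospondin 2, an inhibitor of vessel growth, was at 210, 208, 445, 373 and 323 CPM in IR tumours and at 103, 156, 167 and 99.8 CPM in controls (log2 1.24 ± 0.27, edgeR adjusted p = 0.369, DESeq2 adjusted p = 0.00135). Spon1, the matrix protein spondin 1, was 0.91 ± 0.18 higher on the log2 scale and Postn, periostin of activated fibroblasts, 0.66 ± 0.19 higher (edgeR adjusted p = 0.369 and 0.494). Actg2, the gamma actin of smooth muscle, was at 12.1, 16.0, 36.3, 48.3 and 52.9 CPM in IR tumours and at 6.28, 6.68, 7.45 and 11.6 CPM in controls (log2 2.05 ± 0.45, edgeR adjusted p = 0.369), and without IR 4 and IR 5 the log2 fold change was 1.42. It was highest in IR 3, IR 4 and IR 5, of which 2 are the muscle-rich libraries. The part of the muscle content in these stromal values was not tested beyond the omissions given below.

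**Figure D2:**
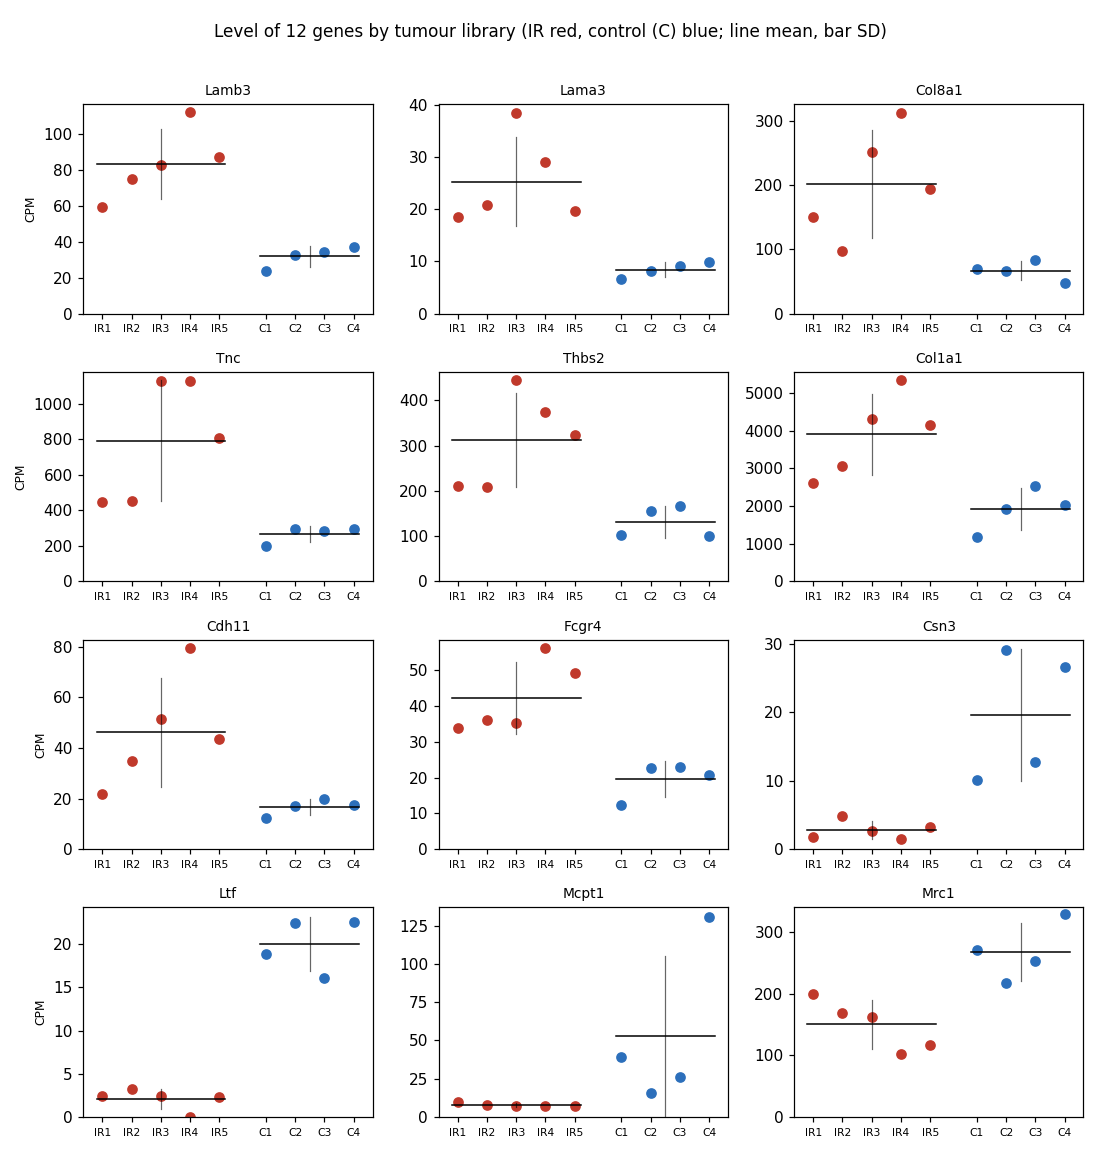
Level (CPM, axis from 0) of 12 genes in each tumour library, IR in red at the left and control (C) in blue at the right, 1 point per library, with the mean (line) and SD (bar) of 5 IR and 4 control libraries. The IR libraries lie above all controls for Lamb3 (83.1 ± 19.3 against 31.9 ± 5.86 CPM) and below all controls for Mrc1 (150 ± 40.3 against 268 ± 46.3 CPM).

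Epithelial markers leaned to higher levels in IR tumours. Of the 24, 10 were higher and 0 lower at an unadjusted edgeR p under 0.05, beside 4.86% and 2.79% of all genes. DESeq2 called 3 higher, beside 0.741% of all genes. Krt7, a keratin of glandular epithelium, was at 366, 283, 471, 795 and 894 CPM in IR tumours and at 247, 188, 299 and 201 CPM in controls (log2 1.27 ± 0.34, edgeR adjusted p = 0.466, DESeq2 adjusted p = 0.0112). IR 4 and IR 5 had the highest values and IR 2 overlapped the controls. Without IR 4 and IR 5 the log2 fold change of Krt7 was 0.68 ± 0.21. Epcam, an adhesion molecule of epithelial cells, was at 383 to 741 CPM in IR tumours and at 311 to 513 CPM in controls (log2 0.56 ± 0.22, edgeR adjusted p = 0.613). Krt8 and Krt18, the paired keratins of simple epithelia, had log2 fold changes of -0.14 ± 0.19 and 0.06 ± 0.19 (edgeR adjusted p = 0.951 and 0.993), and the sign of Krt18 turned under several alternatives. Dsg2, a cadherin of desmosomes, was at 20.5 to 48.1 CPM in IR tumours and at 12.6 to 15.4 CPM in controls, with no overlap (log2 1.16 ± 0.25, edgeR adjusted p = 0.369).

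Of 15 genes of milk and luminal mammary cells 10 were tested, and 3 were lower and 0 higher at an unadjusted edgeR p under 0.05. Some, such as Csn2, passed the low-count filter through control libraries alone, so no group difference is drawn from this count. The sums of the 15 genes overlapped, at 96.8 to 385 CPM in IR tumours and 138 to 512 CPM in controls. They include Glycam1, which had 4614 counts in IR 2, 1365 in IR 5, 4304 in control 2 and at most 15 in any other library. Glycam1 was thus high where lymphoid genes were, and the overlap was not tested without it. Levels of single members were lower in IR tumours. Csn3, kappa-casein, was at 1.77, 4.86, 2.70, 1.43 and 3.21 CPM in IR tumours and at 10.1, 29.1, 12.7 and 26.5 CPM in controls (log2 -2.81 ± 0.43, edgeR adjusted p = 0.354, DESeq2 adjusted p = 3.22e-07). The groups did not overlap, and control 2 and control 4 were the highest. With the summed immunoglobulin level as a covariate, Csn3 was the 1 gene edgeR called, 0.00771% of those tested (log2 -2.82 ± 0.28, adjusted p = 0.0282). Csn3 passed the low-count filter because of the control libraries, so its tests are not read as a group difference. Csn2, beta-casein, was at 0, 2.86, 0.106, 0 and 0.31 CPM in IR tumours and at 6.01, 74.6, 0.958 and 92.1 CPM in controls. Control 2 and control 4 again held most of it, and IR 2 was above control 3.

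Ltf, the iron-binding lactoferrin of milk and neutrophil granules, was at 2.43, 3.19, 2.38, 0 and 2.33 CPM in IR tumours and at 18.8, 22.5, 16.1 and 22.5 CPM in controls (log2 -3.27 ± 0.69, edgeR adjusted p = 0.369, DESeq2 adjusted p = 0.000127). It was called by edgeR without IR 4, the library with 0 counts (log2 -2.95, adjusted p = 0.00194). Ltf passed the low-count filter because of the control libraries, so its tests are not read as a group difference. Btn1a1, the butyrophilin of milk fat globules, was at 0.0466 to 1.68 CPM in IR tumours and at 2.95 to 10.49 CPM in controls (log2 -3.43 ± 0.76, edgeR adjusted p = 0.369, and -4.19 without IR 2). Btn1a1 passed the low-count filter through control libraries alone, so its test is not read as a group difference. Fcgbp, a mucin-like protein that binds the Fc part of immunoglobulin G, was at 0.298 to 15.4 CPM in IR tumours and at 50.6 to 85.3 CPM in controls (log2 -3.41 ± 0.66, edgeR adjusted p = 0.369). Cultured 4T1 cells had 0 CPM of Ltf, Csn2 and Fcgbp.

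Mast cells, tissue-resident cells packed with proteases, showed the same direction. All 7 mast cell proteases tested of 10 were lower in IR at an unadjusted edgeR p under 0.05, beside 2.79% of all genes. DESeq2 called 3 lower, beside 0.216% of all genes. Mcpt8, a member of this list that did not pass the low-count filter, leaned the other way. It had 36 to 114 counts in IR libraries and 18 to 39 in controls. Mcpt1, a protease of mucosal mast cells, was at 9.93, 7.51, 7.10, 7.09 and 6.83 CPM in IR tumours and at 39.4, 15.7, 26.2 and 130 CPM in controls (log2 -2.78 ± 0.53, edgeR adjusted p = 0.369, DESeq2 adjusted p = 2.27e-05). The groups were apart, with control 4 far above the other controls, and without control 4 the log2 fold change was -1.82 ± 0.28 (edgeR adjusted p = 0.638). Mcpt4, a protease of connective tissue mast cells, was at 2.33 to 7.56 CPM in IR tumours and at 9.20 to 30.4 CPM in controls (log2 -1.87 ± 0.46, edgeR adjusted p = 0.436). These proteases are close paralogs that may share reads. Kit, the receptor mast cells depend on, which other cells also use, was at 11.2 to 20.9 CPM in IR tumours and at 16.1 to 23.9 CPM in controls, with overlap.

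The summed level of 20 general macrophage markers was 3949 to 5568 CPM in IR tumours and 4229 to 6550 CPM in controls. At an unadjusted edgeR p under 0.05, 1 was higher and 3 lower, beside 4.86% and 2.79% of all genes. Genes of tissue-resident macrophages were picked out after their values were seen and are described one by one. Mrc1, the mannose receptor, was at 200, 169, 162, 102 and 116 CPM in IR tumours and at 272, 218, 252 and 328 CPM in controls (log2 -0.84 ± 0.20, edgeR adjusted p = 0.436, DESeq2 adjusted p = 0.0169). Every IR library was below every control, and IR 4 and IR 5 were the lowest. Cd163, the haemoglobin scavenger receptor, was at 11.7 to 43.0 CPM in IR tumours and at 42.8 to 113 CPM in controls (log2 -1.505 ± 0.41, edgeR adjusted p = 0.466), and Folr2, a folate receptor, at 13.6 to 33.8 CPM against 39.5 to 59.5 CPM in controls (log2 -0.95 ± 0.26, edgeR adjusted p = 0.466). Adgre1, the F4/80 antigen, was at 33.9 to 58.4 CPM in IR tumours and at 40.2 to 50.7 CPM in controls.

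Of 23 inflammatory cytokine and NF-kB genes tested, 3 were higher and 2 lower at an unadjusted edgeR p under 0.05, beside 4.86% and 2.79% of all genes. DESeq2 called 2 higher and 0 lower, beside 0.741% and 0.216% of all genes. Fcgr4, an activating receptor for immunoglobulin G on myeloid cells, was at 33.9, 36.2, 35.3, 56.3 and 49.2 CPM in IR tumours and at 12.3, 22.6, 23.0 and 20.7 CPM in controls (log2 1.10 ± 0.23, edgeR adjusted p = 0.369, DESeq2 adjusted p = 0.00255). Il1b, the cytokine interleukin 1 beta, was at 89.4, 54.0, 69.2, 55.8 and 65.0 CPM in IR tumours and at 30.8, 36.8, 37.5 and 46.9 CPM in controls (log2 0.81 ± 0.18, edgeR adjusted p = 0.369, DESeq2 adjusted p = 0.00627). The groups were apart for both genes. Nod2, a sensor of bacterial wall fragments, was at 8.05 to 9.49 CPM in IR tumours and at 4.37 to 5.00 CPM in controls (log2 0.86 ± 0.17, edgeR adjusted p = 0.369). Ccl2 and Ccl12, chemokines for monocytes, lay the other way, with log2 fold changes of -0.81 ± 0.24 and -0.86 ± 0.19 and no overlap between the groups (edgeR adjusted p = 0.494 and 0.369).

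Cxcl1, Csf3 and Lcn2, a neutrophil chemokine, the granulocyte growth factor and an iron-carrier binding protein, overlapped between the groups. Their log2 fold changes were 0.31 ± 0.52, -0.31 ± 0.33 and 0.73 ± 0.40 (edgeR adjusted p = 0.970, 0.926 and 0.750). Without control 4 the log2 fold change of Cxcl1 was 0.99. Cxcl5, another neutrophil chemokine, did not pass the low-count filter and was at 0.865 to 4.10 CPM in IR tumours and at 0.437 to 3.80 CPM in controls.

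Genes of the insulin pathway were read because the series is about insulin resistance. Insr, the insulin receptor, was at 106, 69.6, 116, 74.4 and 53.0 CPM in IR tumours and at 68.5, 72.1, 73.6 and 83.4 CPM in controls (log2 0.17 ± 0.21, edgeR adjusted p = 0.949). The IR libraries spread on both sides of the controls. The receptor substrates Irs1 and Irs2 had log2 fold changes of 0.38 ± 0.23 and 0.25 ± 0.21, and Igf1r, the receptor of insulin-like growth factor 1, of 0.12 ± 0.24 (edgeR adjusted p = 0.789, 0.897 and 0.978). Slc2a4, the insulin-regulated glucose transporter of muscle and fat, was at 0.42, 5.19, 1.54, 18.4 and 4.55 CPM in IR tumours and at 2.46, 5.15, 3.78 and 3.60 CPM in controls. The value in muscle-rich IR 4 set the sign, with a log2 fold change of 0.68 ± 0.82 with all libraries and -0.65 ± 0.69 without IR 4 and IR 5 (edgeR adjusted p = 0.943 and 0.650). Of 27 insulin and insulin-like growth factor pathway genes tested, 1 was higher and 0 lower at an unadjusted edgeR p under 0.05, beside 4.86% and 2.79% of all genes.

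These values differed without IR 2, IR 4, IR 5 and control 2, which leaves IR 1 and IR 3 against control 1, control 3 and control 4. In that fit edgeR called 4 of 25 members higher and 0 lower, beside 2.38% higher and 1.11% lower of all 12351 genes. There the log2 fold change was 0.68 ± 0.12 for Irs2, 0.58 ± 0.12 for Igf1r, 0.56 ± 0.13 for Insr and 0.67 ± 0.22 for Irs1 (edgeR adjusted p = 0.0404, 0.0497, 0.0529 and 0.101). Igf1, the ligand, had -1.03 ± 0.45 there and -0.05 ± 0.43 with all libraries (edgeR adjusted p = 0.176 and 0.998). The longest transcripts of Insr, Igf1r, Irs1 and Irs2 have 9355, 11409, 9144 and 6323 bases, and IR 1 and IR 3, the IR libraries that remain, were high for long transcripts, as given below. The part of length in these values was not tested.

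The counts of other lists are read beside the 4.86% of all genes that were higher and the 2.79% that were lower at an unadjusted edgeR p under 0.05. Of 25 mitosis genes 0 were higher and 0 lower at an unadjusted edgeR p under 0.05, with a median log2 fold change of 0.01, and Mki67, a proliferation antigen, was at 178 to 230 CPM in IR tumours and at 158 to 227 CPM in controls. Of 25 cholesterol genes, 1 was higher and 3 lower, and of 21 fatty acid synthesis genes 0 were higher and 0 lower. Insig1, which holds back the sterol sensor, had a log2 fold change of 0.08 ± 0.12, Scd2, a fatty acid desaturase, of -0.25 ± 0.21, and Cpt1a, which admits fatty acids to mitochondria, of 0.33 ± 0.20 (edgeR adjusted p = 0.962, 0.903 and 0.793). Of 25 interferon response genes 4 were higher and 0 lower, with a summed level of 1051 to 1846 CPM in IR tumours and 771 to 1615 CPM in controls. Of 20 endothelial genes 3 were higher and 0 lower at that threshold, and of 12 genes of pericytes and smooth muscle 5 were higher and 0 lower, Actg2 being the 1 gene of these lists whose groups did not overlap.

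Leaving out the muscle-rich and the immunoglobulin-rich libraries moved the number of calls in unequal steps. Without IR 4 and IR 5, edgeR called 1 gene of 12704 (0.00787%), Ltf, which passed the low-count filter because of the control libraries. In the same libraries DESeq2 called 125, of which 51 were among the 124 of all 9 libraries. Without IR 2 and control 2 edgeR called 0, the smallest adjusted p being 0.211 and 1051 genes having an unadjusted p under 0.05, where DESeq2 called 218. Without all 4 it called 431 genes of 12351 (3.49%), 294 higher (2.38%) and 137 lower (1.11%), from 2 IR libraries, IR 1 and IR 3, against control 1, control 3 and control 4. DESeq2 called 1998 genes in those 5 libraries, of which 91 were among those 124. With the summed muscle level as a covariate edgeR called 0 genes, with 941 at an unadjusted p under 0.05.

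**Figure D3:**
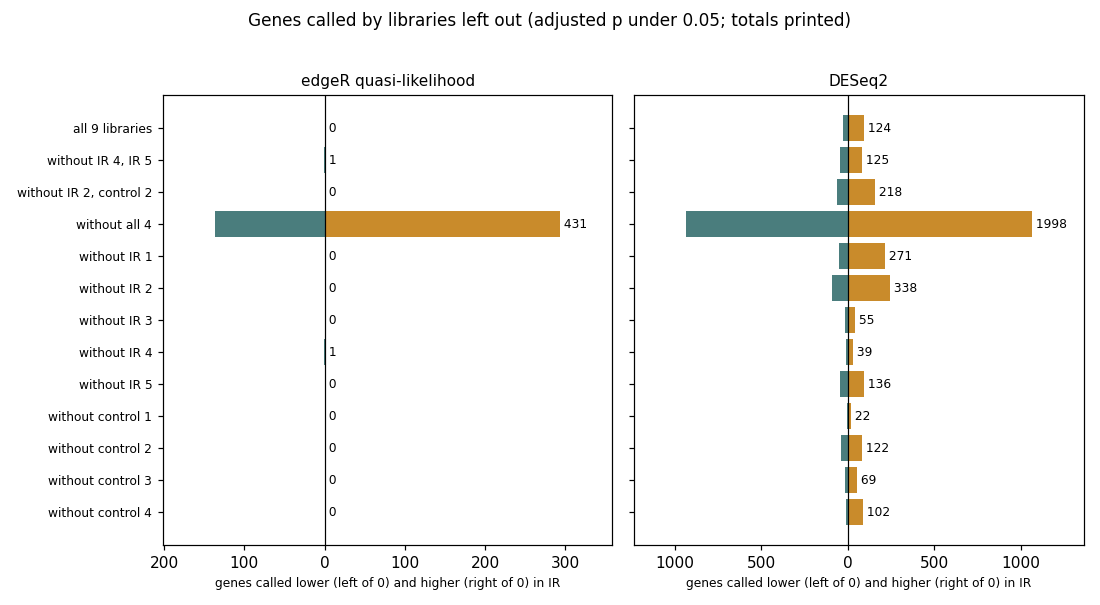
Number of genes called lower (left of 0) and higher (right of 0) in IR at an adjusted p under 0.05, by edgeR and by DESeq2, with all 9 libraries, without sets of libraries and without each library, totals printed at the bars. By edgeR only the 5 libraries that remain without IR 2, IR 4, IR 5 and control 2 give more than 1 call (431), and by DESeq2 the single omissions run from 22 to 338.

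For Lamb3 the log2 fold change was 1.18 ± 0.18 without IR 4 and IR 5, 1.43 ± 0.25 without IR 2 and control 2, and 1.16 ± 0.22 without all 4 (edgeR adjusted p = 0.290, 0.211 and 0.0413). For Col1a1 the same values were 0.79 ± 0.26, 1.10 ± 0.31 and 0.85 ± 0.32. For Ltf they were -2.90 ± 0.23, -3.40 ± 0.76 and -2.995 ± 0.26, and for Mrc1 -0.59 ± 0.15, -0.97 ± 0.24 and -0.65 ± 0.16. Of the 124 genes, 49 were also called by edgeR without all 4 libraries.

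**Figure D4:**
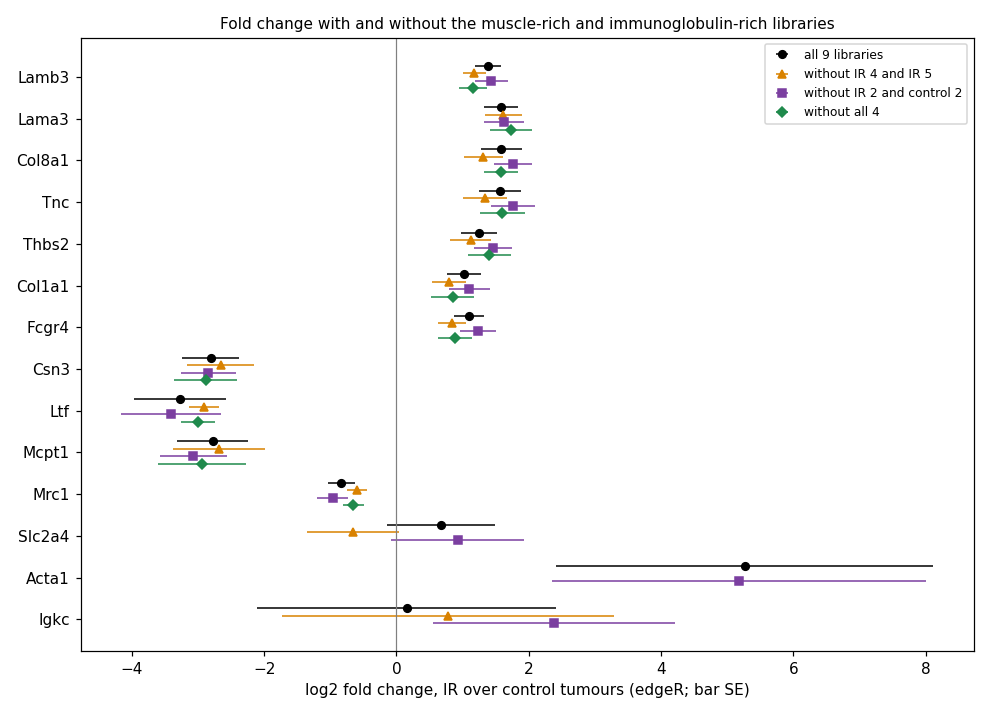
Log2 fold change of IR over control tumours (edgeR, bar SE) for 14 genes with all 9 libraries, without IR 4 and IR 5, without IR 2 and control 2, and without all 4. Lamb3 stays between 1.16 and 1.43, while Slc2a4 is 0.68 with all libraries and -0.65 without IR 4 and IR 5. Acta1, Igkc and Slc2a4 have no point where they did not pass the low-count filter.

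Transcript length moved with the libraries. For genes whose longest annotated transcript is over 6 kb, the median deviation from the mean of both groups on the log2(CPM + 0.5) scale was 0.21, 0.03, 0.36, -0.03 and -0.36 in IR 1 to IR 5, and -0.18 to 0.03 in controls. For genes under 1 kb it was -0.48 in IR 3 and 0.41 in IR 5, and -0.04 to 0.15 in controls. IR 1 and IR 3, the IR libraries that remain when all 4 are left out, were those with the higher levels of long genes. Among the 431 genes called there, the median longest transcript was 6481 bases for those higher and 1535 bases for those lower in IR, beside 3360 bases for all genes tested. For the DESeq2 calls of all 9 libraries the medians were 4596 bases for genes higher and 2561 bases for genes lower. The part of transcript length in these calls was not tested.

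**Figure D5:**
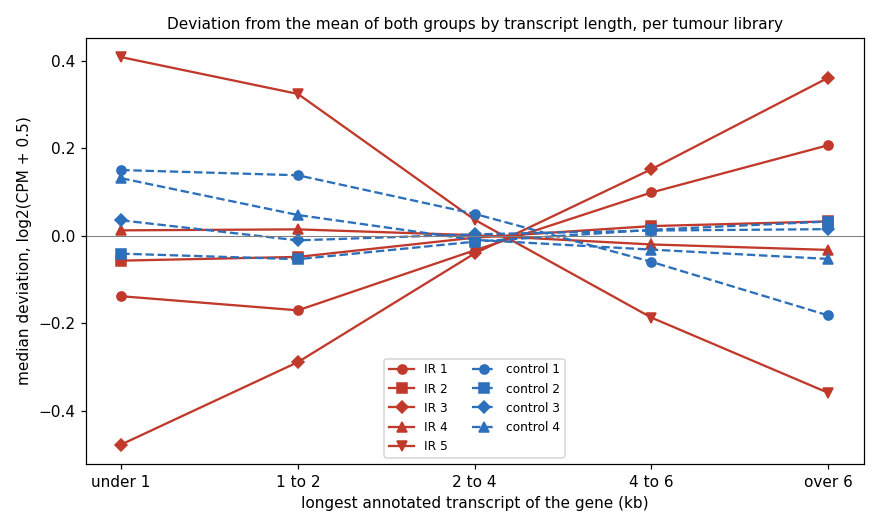
Median deviation of log2(CPM + 0.5) from the mean of both groups (vertical axis) for genes in 5 classes of longest annotated transcript (horizontal axis, kb), 1 line per library, IR solid red and control dashed blue. IR 3 runs from -0.48 for genes under 1 kb to 0.36 for genes over 6 kb and IR 5 runs the other way, from 0.41 to -0.36, while the controls stay between -0.18 and 0.15.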

How the data were processed

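The RNA of 9 primary tumours was sequenced in pairs of reads with a kit for stranded mRNA, as the labels' protocols give it. The deposited tumour table holds estimated counts per gene (salmon, per the file name and headers), not scaled between libraries. The deposited culture table holds expected counts (RSEM). The series text names an nf-core pipeline and DESeq2, and the submitters' processing notes add Trimmomatic, STAR and featureCounts, with no version, and both GRCm38 (mm10) and GRCm39 (mm39). The build behind the tumour counts is not given in the sources. Another 3 culture columns, which match no labelled sample, were left out.

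Counts were rounded. Of 57126 genes, 12962 reached 3 CPM in at least 3 tumour libraries and were tested with edgeR 4.0.16 (TMM scaling, quasi-likelihood test, no covariate) in R 4.3.3, adjusted by Benjamini and Hochberg and called at 0.05. The SE is the log2 fold change divided by the root of the F statistic. Total counts per library were 17392887 to 21909370. Alternatives were DESeq2 1.42.0, limma 3.58.1 voom with library weights, other scalings and filters, covariates and omitted libraries. The scripts were tested on simulated counts.

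Genes were named by rule: the 10 largest called changes each way, and, with under 20 calls, the 10 smallest p at a mean of 10 CPM or more. Up to 4 called members of each list, immunoglobulin constant regions, the first 6 members of each cell type list and a set of 21 insulin, epithelial, cytokine and lipid genes were added. A gene that the rule names is not reported here. Others, such as Thbs2, Ltf, Mrc1, Fcgr4, Krt7, Lama5, Dsg2 and Btn1a1, were chosen after their values were seen. The comparison, lists and members were chosen with earlier results of these data known. The titles give replicate numbers and do not say that equal numbers mark pairs. Deviations from group means correlated at 0.139, 0.760, 0.219 and 0.107 between libraries of equal number, 1 to 4, each above 0.1. The highest value was that of IR 2 and control 2, both rich in immunoglobulin transcripts. IR 2 and IR 3 correlated best with the control of their own number, IR 1 and IR 4 with control 3, and IR 5 has no partner. Transcript lengths are the longest per gene in the annotation, for 99.0% of tested genes.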

Additional observations from a re-analysis of the deposited data

Results flagged for a closer look

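Of 120 groups of values examined (named genes and summed marker lists in each group), 27 held a library far from the others of its group. Chance alone gives about 1 in 20 such groups, and lists that share cells are not independent.

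Lymphoid tissue gave most of them. In IR 2, the summed level was 4741 CPM for immunoglobulin genes, 844 CPM for B cell, 1204 CPM for plasma cell, 736 CPM for T cell, 549 CPM for lymph node stroma and 399 CPM for dendritic cell genes. In control 2, it was 3497 CPM for immunoglobulin genes, 643 CPM for B cell, 992 CPM for plasma cell, 650 CPM for T cell, 364 CPM for lymph node stroma, 335 CPM for dendritic cell, 89.2 CPM for natural killer and 236 CPM for lymphatic endothelial genes. In IR 2 the milk and luminal mammary sum was also far above the other IR libraries, at 385 CPM. Its member Glycam1 had 4614 counts in IR 2, 1365 in IR 5, 4304 in control 2 and at most 15 in any other library. Those are the libraries high for lymphoid genes, and the excess is not read as mammary tissue.

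IR 4 stood apart for muscle, with 15937 CPM of contractile genes, 7243 CPM of muscle calcium and energy genes and 18.4 CPM of Slc2a4. IR 5 had 1937 CPM of Krt8 and IR 1 had 9.93 CPM of Mcpt1, each above the other IR libraries. Control 1 had the highest keratinocyte sum of the controls, 610 CPM, and the lowest Tnc, 197 CPM, and Igf1, 11.96 CPM. Control 4 was highest among controls for Cdh1 (312 CPM), Cxcl1 (17.7 CPM), Lcn2 (348 CPM) and Scd2 (714 CPM).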

How the results depend on the processing

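With all 9 libraries edgeR called 0 genes, and DESeq2 called 124, 96 higher and 28 lower. The edgeR count was 1 without IR 4 and IR 5 (1 lower), 1 with the immunoglobulin covariate (1 lower) and 431 without IR 2, IR 4, IR 5 and control 2 (294 higher, 137 lower). It was 0 to 1 when 1 library was left out, the 1 being Ltf, lower, without IR 4. With the replicate block it was 1 (1 higher, Lamb3). Pairing by the numbers of the column names instead, added after seeing the data, gave 4 (1 higher, Lamb3, and 3 lower, Csn3, Ltf and Fcgbp). Csn3 and Ltf passed the low-count filter because of the control libraries, so their calls under any setting are not read as group differences. The block changed no other call. The other scalings and filters, the muscle covariate, both covariates, voom and the robust fit gave 0, with 941 to 1801 genes at an unadjusted p under 0.05. The DESeq2 count was 218 without IR 2 and control 2, 1998 without all 4, and 22 (without control 1) to 338 (without IR 2) with 1 library left out. It was 39 without IR 4, 55 without IR 3, 69 without control 3 and 271 without IR 1. These omissions under DESeq2 were chosen after seeing the data. Where a library is left out fewer samples are fitted, and the cause of each shift was not tested.

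Of 74 named genes tested, 63 kept their sign under every setting. Slc2a4 (main 0.68 on the log2 scale) was -0.25 and -0.74 with the 2 replicate blocks, -0.65 without IR 4 and IR 5, -0.78 with the muscle and -0.91 with both covariates, -0.18 by voom, and -0.36 to 0.98 with 1 library left out. Acta1 was -3.04 and -3.03 with the blocks, -3.04 with the muscle and -1.98 with both covariates. Igkc was -1.45 with the block, -0.49 with the immunoglobulin and -0.68 with both covariates, -0.90 by voom, and -3.32 to 5.86 with 1 library left out. Krt18 was -0.068 with the block, -0.16 without IR 4 and IR 5, -0.22 without all 4, and -0.017 with the muscle and -0.011 with both covariates. Mki67 was 0.0057 without bystander genes, 0.012 without a filter, 0.048 with the block, and 0.023, 0.018 and 0.035 without IR 4 and IR 5, without IR 2 and control 2, and without all 4. Scd2 was 0.0068 without IR 4 and IR 5 and 0.0701 without all 4. With 1 library left out, Csf3 ran from -0.47 to 0.13, Igf1 from -0.28 to 0.20, Igf1r from -0.045 to 0.25, Krt18 from -0.080 to 0.16, Lama5 from -0.061 to 0.30, Mki67 from -0.12 to 0.043 and Xist from -0.10 to 0.34.

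The limits are few libraries of mixed tissue and a low level of some genes, such as Ltf, which had 0 counts in IR 4. The smallest library held 17392887 counts.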
